A study of Mus musculus with 6 samples.

Results

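Cholesterol synthesis and transport genes were followed in mast cells that carried or lacked the microRNA miR-155. The set holds 30 genes by name: enzymes of the synthesis pathway, the proteins that sense sterols, and proteins of sterol storage, transfer, uptake and efflux. The members were listed by gene symbol, with earlier results of these data known. Each was read from the array row that the platform annotation gives to that symbol alone. Of the 30, 27 had such a row, among 19938 genes in all, and Acat2, Nr1h2 and Soat1 were not analysed here. A gene with several rows was represented by the row with the highest mean over the 6 arrays.

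Mast cells were grown from bone marrow of C57BL/6J mice for 5 weeks with SCF at 1 ng/ml and IL-3 at 0.5 ng/ml. The cells were wild type (WT, 3 replicates) or labelled mir-155 KO (KO, 3 replicates), with 1 Affymetrix array per replicate. Every replicate, WT included, received IgE against the hapten DNP (0.2 µg/ml) overnight and then the antigen DNP-HSA (20 ng/ml) for 1 h. The arrays therefore compare genotypes after stimulation and hold no measure of the response itself. The labels do not describe the deleted allele. They number the replicates without saying whether these were separate cultures or how many mice they came from.

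Cholesterol is built from acetyl-CoA, first through mevalonate to isoprenoid diphosphates, which also feed protein prenylation and ubiquinone, and then through squalene and lanosterol to the sterol itself. When membranes run low in sterol, SCAP escorts the SREBP transcription factors out of the endoplasmic reticulum, which INSIG proteins otherwise prevent, and the released factors switch on the synthesis genes. When sterol is plentiful, oxysterols activate the LXR nuclear receptors, which switch on the exporters ABCA1 and ABCG1 and MYLIP, an E3 ligase that marks lipoprotein receptors for degradation. In mast cells, cholesterol-rich membrane is where the IgE receptor FcεRI meets its first kinases.

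The microRNA that distinguishes the groups is shown first, since its seed, in capitals (bases 2 to 8), is the part that pairs with target transcripts. Both mature arms come from the RefSeq table of mouse build GRCm38.p6 and lie on the plus strand, at chr16:84714143-84714165 for the 5p arm and chr16:84714182-84714202 for the 3p arm.
mmu-miR-155-5p: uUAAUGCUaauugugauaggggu
mmu-miR-155-3p: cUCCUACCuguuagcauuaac
Whether transcripts of the members hold matches to these seeds was not tested. The array's row for Mir155 read 2.93, 2.88 and 3.17 in WT and 2.77, 2.91 and 2.90 in KO replicates 1, 2 and 3 (log2 intensity). These values overlap and lie below the array medians (3.67 to 3.74), so this row is no check of the deletion.

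Upstream sequence is shown for 5 members that differed in opposite directions or carry the sterol regulatory element. Dhcr7, also lower on all KO arrays, has 3 annotated starts and is not shown. Each line gives the 150 bases before the annotated start on the gene's strand, GRCm38.p6, from the RefSeq promoter table. Capitals mark CCAAT (bound by NF-Y), GGGCGG (bound by Sp1) and TCACNCCAC (the sterol regulatory element bound by SREBPs), each searched on both strands. No 2 of these matches overlap in the windows shown. The lines cover chr13:8885456-8885605 (Idi1), chr13:119690201-119690350 (Hmgcs1), chr10:76531455-76531604 (Lss), chr15:82147119-82147268 (Srebf2) and chr13:45389592-45389741 (Mylip), all on the plus strand.
Idi1: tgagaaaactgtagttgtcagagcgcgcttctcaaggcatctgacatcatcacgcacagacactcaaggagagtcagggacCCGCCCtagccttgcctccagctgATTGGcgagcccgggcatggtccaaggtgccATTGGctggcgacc
Hmgcs1: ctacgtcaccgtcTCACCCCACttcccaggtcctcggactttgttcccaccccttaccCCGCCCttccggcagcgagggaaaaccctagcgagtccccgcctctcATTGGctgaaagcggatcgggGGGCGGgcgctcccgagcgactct
Lss: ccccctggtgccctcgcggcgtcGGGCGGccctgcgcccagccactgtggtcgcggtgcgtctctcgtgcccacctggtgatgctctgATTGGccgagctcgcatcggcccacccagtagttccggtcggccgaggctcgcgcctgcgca
Srebf2: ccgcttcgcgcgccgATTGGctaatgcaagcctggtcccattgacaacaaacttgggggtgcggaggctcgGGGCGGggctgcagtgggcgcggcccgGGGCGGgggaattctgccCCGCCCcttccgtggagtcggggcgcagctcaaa
Mylip: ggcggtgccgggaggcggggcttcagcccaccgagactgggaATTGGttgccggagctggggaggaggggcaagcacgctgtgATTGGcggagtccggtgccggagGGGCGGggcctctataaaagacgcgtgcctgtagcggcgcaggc

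The promoter table, whose windows run from 250 bases before to 50 after each start, held 22 of the 27 members. CCAAT was found in 19 of the 22 (86.4%), against 41.7% of the 15614 tested genes in the table. GGGCGG was found in 20 (90.9%), against 52.9%. The E-box CACGTG was found in 6 (27.3%), against 9.50%. The sterol regulatory element in this strict spelling was found in 1 member, Hmgcs1, against 1.40% of tested genes. An LXR direct repeat was found in 0 of the 22 and in 1 of the 15614. Idi1, with higher values in KO, and Lss, Srebf2 and Mylip, with lower values, all hold both CCAAT and GGGCGG in these windows. Dhcr7, also with lower values, was searched at 3 starts that differ. Of the 150 bases before each, chr7:143830064-143830213 holds both motifs. The stretch chr7:143823017-143823166 holds GGGCGG but no CCAAT, and chr7:143823249-143823398 holds neither. These counts are matches of letters, and genes with several annotated starts were searched at each of them.

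No member passed the test between genotypes, and the values of single members went both ways. Each gene was fitted with limma on log2 intensities, and a gene is said to have risen or fallen where its Benjamini-Hochberg adjusted p over all 19938 genes was under 0.05. By this rule 0 of the 27 members rose (background 0.507% of all genes) and 0 fell (background 0.316%), where 0.823% of all genes passed in either direction. At an unadjusted p under 0.05 there were 7 members (25.9%, background 12.7%), 1 higher (background 6.24%) and 6 lower in KO (background 6.45%). In 7 members (25.9%, background 17.2%) all 3 KO arrays lay on 1 side of all 3 WT arrays, 1 higher (Idi1, background 8.18%) and 6 lower (Lss, Sqle, Dhcr7, Srebf2, Stard4 and Mylip, background 9.05%). Differences are log2 values of KO less those of WT, and 17 of the 27 were negative (63.0%, background 52.0%). Their median was -0.09, against -0.01 over all genes. The 95% intervals of all 27 differences lay within 1 log2 unit, or 2-fold, on either side of 0.

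**Figure D1:**
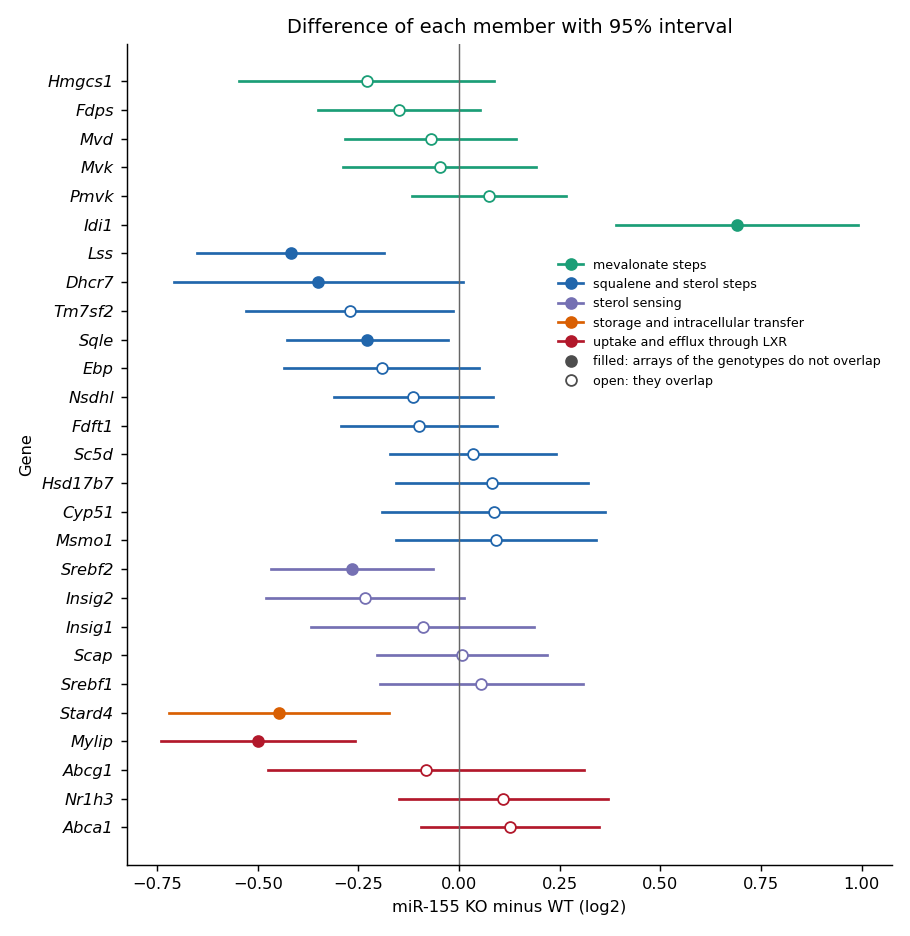
Difference between miR-155 KO and WT (log2) for each of the 27 members with its 95% interval from limma, coloured by role. Filled points mark the 7 members whose genotypes do not overlap: Idi1 lies at 0.69, and the other filled points lie between -0.50 and -0.23.

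Among the 6 measured genes of the mevalonate steps, Idi1 differed most. Idi1 encodes isopentenyl diphosphate isomerase, which makes dimethylallyl diphosphate for the first condensation of isoprenoid units. Its brighter row read 9.11, 9.01 and 9.33 in WT and 10.004, 9.58 and 9.93 in KO replicates 1, 2 and 3. All 3 KO arrays were above all 3 WT arrays, a difference of 0.69 (SE 0.13, 1.61-fold, limma adjusted p = 0.0564). Idi1 thus missed the threshold. It passed in 6 of the 14 alternative settings, with an adjusted p from 0.0261 to 0.193 and a difference from 0.61 to 0.82 in all of them.

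The second row of Idi1 read 8.86, 8.74 and 9.05 in WT and 9.73, 9.39 and 9.69 in KO. It too had every KO array above every WT array, by 0.72 (SE 0.12). In a limma fit over all 21789 rows with a single symbol, this row had an adjusted p of 0.0420 and the brighter row 0.0591. The annotation gives the same gene for both rows, and they are not counted as independent measurements.

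Hmgcs1, the HMG-CoA synthase that commits acetyl-CoA units to the pathway, read 9.24, 9.04 and 9.45 in WT and 8.80, 9.0 and 9.24 in KO. These ranges overlap, and the difference was -0.23 (SE 0.14, adjusted p = 0.581). It was -0.12 without KO replicate 1 and -0.13 without WT replicate 3. Fdps, which joins isoprenoid units into farnesyl diphosphate, differed by -0.15 (SE 0.09). Mvd, the mevalonate diphosphate decarboxylase, differed by -0.07, Mvk, mevalonate kinase, by -0.05, and Pmvk, phosphomevalonate kinase, by 0.08, each with overlapping genotypes. Idi1 therefore stood apart from the other 5 mevalonate genes, which lay between -0.23 and 0.08.

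**Figure D2:**
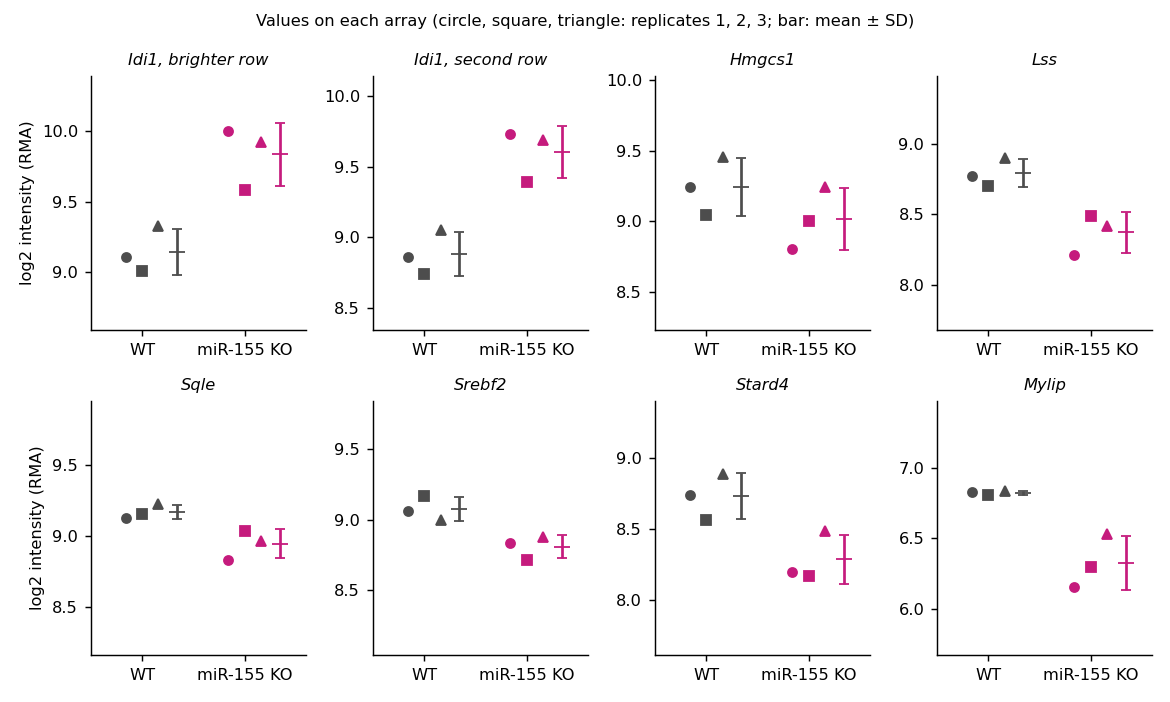
log2 intensity on each of the 6 arrays for both rows of Idi1 and for 6 other members; bars give the mean ± SD of 3 arrays, and every panel spans the same range of log2 units. Both Idi1 rows are higher on all KO arrays, Hmgcs1 overlaps, and Lss, Sqle, Srebf2, Stard4 and Mylip are lower on all KO arrays.

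Of the 11 genes of the squalene and sterol steps 0 rose (background 0.507%) and 0 fell (background 0.316%). Their differences ran from -0.42 to 0.09, with a median of -0.11. Lss encodes lanosterol synthase, which closes the sterol rings. It read 8.77, 8.70 and 8.90 in WT and 8.21, 8.49 and 8.42 in KO, without overlap. The difference was -0.42 (SE 0.10, 1.34-fold lower, limma adjusted p = 0.110). Sqle, the squalene epoxidase of the step before, read 9.13, 9.16 and 9.23 in WT and 8.83, 9.04 and 8.96 in KO. Its arrays did not overlap either, with a smaller difference of -0.23 (SE 0.09, adjusted p = 0.311).

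Dhcr7, the reductase of the last step to cholesterol, read 6.71, 6.79 and 6.87 in WT and 6.04, 6.66 and 6.62 in KO. KO replicate 1 was the lowest array by far, and the difference of -0.35 (SE 0.16, adjusted p = 0.410) was -0.15 (SE 0.10) without it. Tm7sf2, a sterol C14 reductase, read 5.95, 5.59 and 5.95 in WT and 5.54, 5.52 and 5.62 in KO. WT replicate 2 lay within the KO range, and the difference was -0.27 (SE 0.11, adjusted p = 0.360). Ebp, the sterol isomerase, differed by -0.19, Nsdhl, a C4 demethylation dehydrogenase, by -0.11, and Fdft1, squalene synthase, by -0.10. The second, dimmer row of Fdft1 differed by -0.11. In contrast, Msmo1, the C4 methyl oxidase, differed by 0.09, Cyp51, the lanosterol demethylase, by 0.09, Hsd17b7, a C4 ketoreductase, by 0.08, and Sc5d, the C5 desaturase, by 0.03. All 7 of these genes overlapped between genotypes.

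As an average, the 17 synthesis genes lay -0.07 from WT in KO. Single arrays moved this average: it was -0.02 without WT replicate 3 or without KO replicate 1, and -0.11 without KO replicate 3. Relative to the WT mean of each gene, their average stood at -0.15, -0.06 and 0.02 in KO replicates 1, 2 and 3, and at -0.01, -0.08 and 0.08 in WT replicates 1, 2 and 3. Without Idi1 the KO arrays stood at -0.22, -0.10 and -0.03. The arrays of each genotype thus spread more widely than the difference between the genotypes. WT replicate 2 was the lowest WT array for 11 of the 17 (64.7%, against 34.9% of all genes), and WT replicate 3 the highest for 10 (58.8%, against 36.5%). Within KO, replicate 1 was the lowest for 11 (64.7%, against 36.8%) and replicate 3 the highest for 10 (58.8%, against 35.0%). Hmgcs1, Idi1, Fdft1, Lss, Cyp51, Msmo1 and Sc5d all had WT replicate 2 lowest and WT replicate 3 highest, as had Insig1, Insig2, Stard4 and Mylip. That made 11 of the 27 members (40.7%), against 19.7% of all genes. These are 3 arrays, and the order is a description of them.

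**Figure D3:**
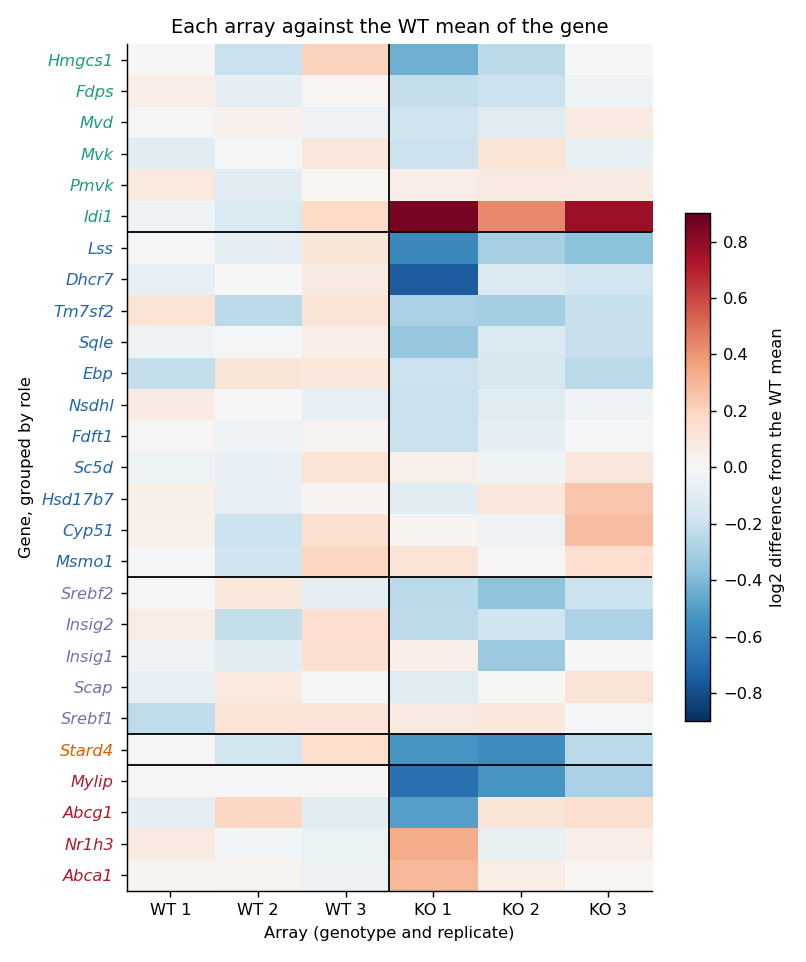
Each of the 6 arrays against the WT mean of the gene (log2, red higher, blue lower) for the 27 members, grouped by role. The row of Idi1 is red on all 3 KO arrays, and KO replicate 1 is the lowest KO array for 11 of the 17 synthesis genes and for Mylip.

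Of the 5 sterol-sensing genes 0 rose (background 0.507%) and 0 fell (background 0.316%). Srebf2 encodes SREBP2, the factor that mainly drives cholesterol synthesis. It read 9.06, 9.17 and 9.0 in WT and 8.83, 8.72 and 8.88 in KO. The genotypes did not overlap, and the difference was -0.27 (SE 0.09, 1.20-fold lower, limma adjusted p = 0.234), and -0.28 without KO replicate 1. Srebf1, which encodes the SREBP1 factors of fatty acid synthesis, read 7.11, 7.46 and 7.45 in WT and 7.42, 7.43 and 7.33 in KO. Here WT replicate 1 was the low array and the genotypes overlapped, with a difference of 0.05 (95% interval -0.20 to 0.31).

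Insig1, an SREBP target that retains SCAP in the endoplasmic reticulum, read 9.06, 9.01 and 9.25 in WT and 9.16, 8.77 and 9.11 in KO. Its arrays overlapped, with a difference of -0.09 (95% interval -0.37 to 0.19). Insig2, the related retention protein, differed by -0.23 (SE 0.11, adjusted p = 0.427) and Scap, the escort itself, by 0.01 (SE 0.09). Of storage and transfer within the cell, Stard4 was measured, a soluble carrier of sterol between membranes. Stard4 read 8.74, 8.56 and 8.89 in WT and 8.20, 8.17 and 8.49 in KO. The genotypes did not overlap, and the difference was -0.45 (SE 0.12, 1.36-fold lower, adjusted p = 0.141), and -0.40 without KO replicate 1.

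Among the 4 measured genes of LXR signalling, uptake and efflux, the genotypes did not overlap for 1, Mylip (background 17.2% of all genes). With 4 genes, this count does not set the group apart from the background. Mylip read 6.83, 6.81 and 6.83 in WT and 6.15, 6.29 and 6.53 in KO. The WT arrays were nearly equal and all KO arrays lay below them, a difference of -0.50 (SE 0.11, 1.41-fold lower). Mylip missed the threshold with an adjusted p of 0.0782, and 0 of its 14 alternatives passed (limma adjusted p from 0.0547 to 0.217). Without KO replicate 1 the difference was -0.41.

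Abcg1, an exporter that loads sterol onto lipoprotein particles, read 8.61, 8.89 and 8.61 in WT and 8.21, 8.81 and 8.85 in KO. KO replicate 1 was the lowest array and the other KO arrays lay within the WT range. The difference was -0.08 (95% interval -0.47 to 0.31) and 0.13 (SE 0.12) without KO replicate 1. Abca1, the exporter to lipid-poor apolipoprotein, read 3.34, 3.34 and 3.26 in WT and 3.61, 3.38 and 3.33 in KO. Nr1h3, the LXRα receptor, read 3.46, 3.35 and 3.31 in WT and 3.71, 3.31 and 3.43 in KO. Both genes lay around or below the array medians on every array, as the only 2 of the 27 members with a mean below them. Their differences were 0.13 (SE 0.10) and 0.11 (SE 0.11), at a signal that limits what can be seen. The average over the 4 LXR genes stood at -0.13, -0.11 and -0.02 in KO replicates 1, 2 and 3, and at 0.01, 0.04 and -0.05 in WT replicates 1, 2 and 3. Mylip was the only 1 of the 4 with a difference beyond 0.13 in size, and the median of the 4 differences was 0.01.

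Other genes of the pathway, in lists drawn up by function with earlier results of these data known, held 2 that passed. Among 18 genes of SREBP processing and sterol-regulated degradation 1 rose, 0 fell and 17 did not pass (background 0.507% higher and 0.316% lower), with a median of 0.02. It was Sec23a, which encodes a COPII coat protein of vesicles that leave the endoplasmic reticulum, a general carrier that SREBP also uses. Sec23a read 6.69, 6.73 and 6.85 in WT and 7.49, 7.23 and 7.60 in KO. All KO arrays were higher, and it rose 1.61-fold (0.69, SE 0.11, limma adjusted p = 0.0355). The call was lost when any WT array, or KO replicate 1 or 3, was left out (adjusted p from 0.0827 to 0.140), and when all 35557 rows were tested (0.162). Rnf145, a sterol-responsive E3 ligase, differed by -0.50 (SE 0.10, adjusted p = 0.0581), Syvn1, an E3 ligase of the endoplasmic reticulum, by 0.39, and Sar1b, a GTPase of COPII coats, by 0.33, or 0.21 without KO replicate 3.

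Among 22 LXR partners, LXR targets and efflux genes 0 rose (background 0.507%) and 1 fell (background 0.316%), with a median of -0.05. Apoe, the apolipoprotein that carries exported sterol, read 6.19, 6.43 and 6.36 in WT and 5.86, 5.81 and 5.66 in KO. The arrays did not overlap and Apoe fell by 0.55 (SE 0.10, limma adjusted p = 0.0487). This call sat at the threshold and passed in 2 of the 14 alternatives, with dim genes left out and with the rows of a gene averaged (limma adjusted p from 0.0430 to 0.175 over all 14). It was lost without any 1 of the 6 arrays (0.0746 to 0.148) and with the replicate block (0.0729). Ch25h, the enzyme that makes the oxysterol 25-hydroxycholesterol, read 3.42, 3.41 and 3.30 in WT and 5.02, 4.10 and 4.15 in KO. It was higher on all KO arrays by 1.05 (SE 0.22, adjusted p = 0.0729). Its WT values lay below the array medians, and without KO replicate 1 the difference was 0.75 with an adjusted p of 0.0164. Abca2, an endosomal transporter, differed by -0.65 (SE 0.20), and by -0.38 without KO replicate 1, its lowest array. Nceh1, a cholesteryl ester hydrolase, differed by -0.39 (SE 0.16), by -0.24 without WT replicate 3 and by -0.26 without KO replicate 1.

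In the list of 21 SREBP targets of fatty acid synthesis and lipid supply 0 rose (background 0.507%) and 0 fell (background 0.316%). The genotypes did not overlap for 11 (52.4%, background 17.2%), 10 lower and 1 higher. The median was -0.13. The 4 with the lowest p were Me1, the malic enzyme that supplies NADPH, at 0.58 (SE 0.14), Slc25a1, the mitochondrial citrate carrier, at -0.38 (SE 0.10), Fasn, fatty acid synthase, at -0.45 (SE 0.13), and Elovl5, a fatty acid elongase, at -0.38 (SE 0.12). Their limma adjusted p lay between 0.114 and 0.193. Fasn read 8.07, 8.38 and 8.06 in WT and 7.51, 7.88 and 7.77 in KO, without overlap, as did Acaca, acetyl-CoA carboxylase, at a smaller difference of -0.14.

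Among 23 genes of uptake, endosomal export and sterol transfer 0 passed (background 0.823%), with differences from -0.76 to 0.76. The genotypes did not overlap for 9 (39.1%, background 17.2%), 4 higher and 5 lower. Members of the same families went both ways. Osbpl5, an oxysterol-binding protein relative, differed by -0.75 (SE 0.14, limma adjusted p = 0.0504), and Stard5, a relative of Stard4, by -0.76 (SE 0.15, adjusted p = 0.0623). Osbp, the founding oxysterol-binding protein, differed by 0.37 (SE 0.08), and Gramd1a, a sterol carrier at contacts with the plasma membrane, by 0.76 (SE 0.20). Osbpl5 and Stard5 passed in 6 and 3 of their 14 alternatives. Of 9 further synthesis genes 0 passed (background 0.823%), and the genotypes did not overlap for 2 (22.2%, background 17.2%), Nus1 higher and Lbr lower. Nus1 differed by 0.25 (SE 0.10, limma adjusted p = 0.307). Lbr, a sterol C14 reductase of the nuclear envelope, differed by -0.50 (SE 0.16, adjusted p = 0.223) where Tm7sf2, which shares its reaction, differed by -0.27. Lbr read 8.74 in KO replicate 1 against 9.29 and 9.35 in the other KO arrays, and its difference was -0.31 without that array.

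**Figure D4:**
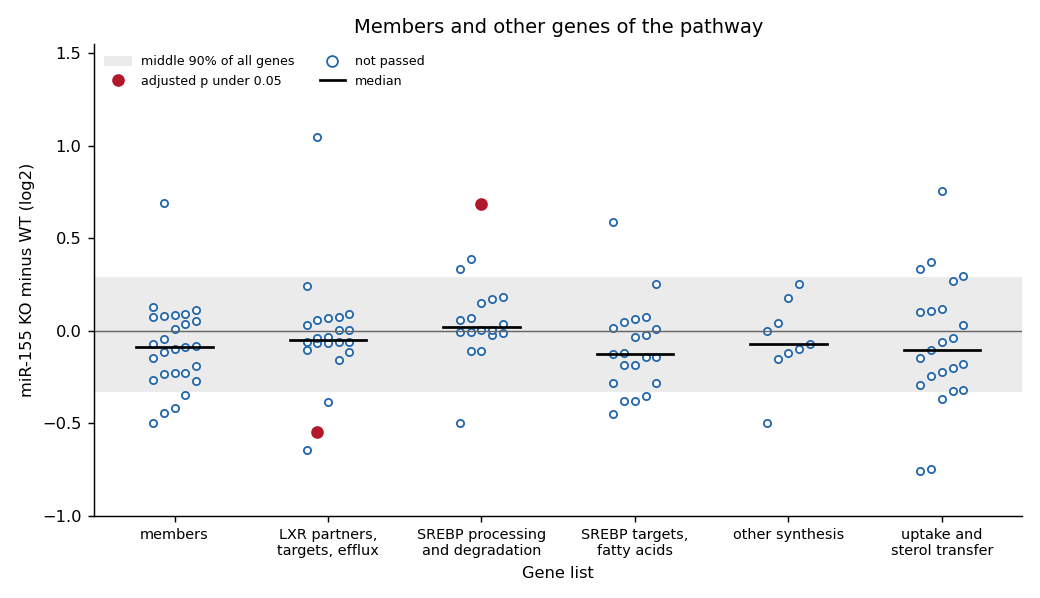
Difference between miR-155 KO and WT (log2) of each gene in the member set and in 5 lists of other pathway genes; black bars are medians and the grey band holds the middle 90% of all genes (-0.32 to 0.29). The 2 filled points are Sec23a at 0.69 and Apoe at -0.55, and Idi1 is the highest open point among the members.

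Several features of the samples bear on these values. KO replicate 1 lay apart from the other arrays (32.03 on the first principal component, against 5.36 and 7.31 for the other KO arrays and -19.52 to -10.57 for WT). The 13 measured mast cell markers were all above the array medians, and 0 of them passed the test. The genotypes did not overlap for 3 of the 13 (23.1%, background 17.2%), all higher in KO. These were Hdc, by 0.84 (SE 0.28), Mcpt4, by 0.44 (SE 0.13), and Srgn, by 0.21 (SE 0.08). Over the 13 markers 8 differences were positive and 5 negative, with a median of 0.04. Mitf was the lowest, at -0.29 (SE 0.12), with overlapping genotypes. Of 14 macrophage and monocyte markers, 12 had means below the array medians, Csf1r, Adgre1 and Lyz2 among them, and 2, Cx3cr1 and Cd68, did not. Their summed linear intensity was 854 to 1000 in WT and 502 to 691 in KO. This sum weights genes by probe brightness and rests mostly on Cx3cr1 and Cd68. The genotypes did not overlap for 3 of the 14 (21.4%, background 17.2%), all lower in KO. Of the 14 differences 10 were negative and 4 positive. Cx3cr1 fell by 0.95 (SE 0.14, limma adjusted p = 0.0280). Cd68 differed by -0.35 (SE 0.19, limma adjusted p = 0.515), with overlapping genotypes. All 9 neutrophil markers had means below the array medians, and 3 basophil and 7 dendritic cell markers did not pass. Of the dendritic cell markers, H2-Ab1 was lower on all KO arrays by 0.56 (SE 0.10, limma adjusted p = 0.0523). Ciita, with a mean below the array medians, was higher on all of them by 0.08. The part of other cells in the differences above was not tested, and fewer cells of a type cannot be told apart from less RNA per cell.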

How the data were processed

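Per the submitters' processing notes, the authors made the deposited log2 intensities from the Affymetrix Mouse Gene 1.0 ST arrays with RMA, a method of background correction, normalization between arrays and summary of probes into 1 value per row. Its version and the genome build are not given in the sources used here. Intensities of different genes are not compared, since probes differ in brightness, and 3 arrays per group limit the precision.

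Of 35557 rows, 21789 had 1 gene symbol in the platform annotation, 1621 had several and 12147 none. The highest row per symbol left 19938 genes. For the test, limma 3.58.1 (R 4.3.3) fitted each gene (lmFit, eBayes; genotype as the only term, 4 residual degrees of freedom plus a prior of 4.68), two-sided, with Benjamini-Hochberg adjustment. SE is the moderated standard error. The fit was tested on simulated data. Members, lists and the naming rule (every member; of each list up to 4 genes with the lowest p, plus Acaca, Cx3cr1 and the marker names, which were chosen after their values were seen) were chosen with earlier results of these data known. Of the other pathway genes 93 of 108 were measured. Plots used matplotlib 3.10.9. Whether replicate numbers pair WT with KO samples cannot be told from 3 arrays per group. Across genes, deviations from the group means correlated from -0.061 to 0.237 between same-numbered arrays. Between arrays of unlike number the correlations ran from -0.246 to 0.235. The alternatives in the closing section cover normalization, the replicate block, dim genes, priors, the choice of rows and each array left out.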

Additional observations from a re-analysis of the deposited data

How the results depend on the processing

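Of the 27 members 0 passed in the reported limma fit. The count was 1, Idi1 each time, with the replicate block, with quantile normalization repeated, with dim genes left out, with trend and robust priors, and with the rows of a gene averaged. It was 0 to 1 when 1 array was left out, with Idi1 passing without KO replicate 2. It was 0 with array medians centred and with every row tested. With every row of 1 symbol tested, an alternative chosen after seeing the data, it was 0 when the brighter row of each member was counted, while the second row of Idi1 passed (adjusted p = 0.0420). Over all genes, 164 passed in the reported fit, 4 when all 35557 rows were tested and 15 to 167 when 1 array was left out. The replicate block gave 199 over all genes and changed no other call among the members. The averages over the groups of members moved by less than the spread between replicates in the settings tried. Among single members, signs changed in those near 0. Scap was at -0.00 with quantile normalization repeated. With 1 array left out, the difference ran from -0.05 to 0.06 for Scap, from -0.13 to 0.03 for Mvk, from -0.01 to 0.16 for Cyp51, from -0.00 to 0.17 for Hsd17b7, from -0.00 to 0.10 for Sc5d, from -0.06 to 0.11 for Srebf1, from -0.17 to 0.03 for Insig1, from -0.00 to 0.20 for Nr1h3 and from -0.20 to 0.13 for Abcg1. Abca1 and Nr1h3 are limited by signal near the array medians, and the cause of these shifts was not tested.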

Other observations

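The genes around Idi1 (chromosome 13, 8885606 to 8892396 in GRCm38.p6) were looked at after its values were seen. Of 8 measured genes within 1 Mb, 6 had positive differences (background 9566 of 19938 genes), with a median of 0.12. By limma 0 of the 8 passed (background 0.823%). The nearest on either side were Wdr37, a WD-repeat protein gene, at 0.25 (SE 0.09), and Idi2, the isomerase paralog, whose values lay near the bottom of the range (2.83 in WT and 3.01 in KO). Beyond Idi2, Gtpbp4, a GTPase of ribosome assembly, differed by 0.62 (SE 0.20) and Larp4b, an RNA-binding protein gene, by 0.42 (SE 0.09). Of the 8, 2 were higher on all 3 KO arrays, Larp4b and Wdr37 (background 8.18% of all genes), and 1 was lower on all 3, Chrm3 (background 9.05%), while the genotypes of Gtpbp4 overlapped. Dip2c, counted among the positive ones, was at 0.00 and Adarb2 at 0.06. Zmynd11 was at -0.19 and Chrm3 at -0.09, with values of Chrm3 below the array medians.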
